A study of Mus musculus with 105 samples.

Results

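Ccl3, Ccl4 and Xcl1 are 3 chemokine genes that T cells switch on after stimulation, chosen here by name from the 22322 mouse genes of a count table and followed in every library. The study measured mRNA decay in CD4+ T cells by blocking transcription, translation or both. The cells were taken by negative selection from the spleen and lymph nodes of 6-week-old C57BL/6J female mice and were kept resting or activated with beads that carry antibodies to CD3 and CD28, which stand in for the antigen receptor signal and its co-stimulation. Transcription was blocked with triptolide at 25 µM in both states or with DRB, a kinase inhibitor that stops RNA polymerase elongation, at 65 µM in activated cells only. Translation was blocked with cycloheximide at 100 µg/ml, which halts elongating ribosomes, or with harringtonine at 2 µg/ml, which halts ribosomes at the start codon. Each inhibitor of translation was given alone, with triptolide or with DRB for 1 or 3 h, and untreated, triptolide and DRB cells were also sampled at 0 h. This made 35 groups of 3 libraries, 21 of activated and 14 of resting cells. Total RNA came from equal cell numbers and was sequenced with 92 synthetic ERCC spike-in RNAs. The labels name the libraries biological replicates 2, 3 and 4 but do not say whether each came from its own mice, so every p-value here measures the spread between these libraries. The protocol also lists an inhibitor time shorter than 1 h that no library label carries, and how long the inhibitor libraries labelled 0 h were exposed is not stated.

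Chemokines are small secreted proteins that draw leukocytes along a gradient by acting on G protein-coupled receptors. Ccl3 (MIP-1 alpha) and Ccl4 (MIP-1 beta) are CC chemokines that T cells, NK cells and macrophages secrete on stimulation. Xcl1 (lymphotactin) is the C chemokine of the mouse and attracts the cross-presenting dendritic cells that carry its receptor, Xcr1. Many cytokine and chemokine mRNAs carry AU-rich elements in the 3′ untranslated region, where proteins such as tristetraprolin bind and recruit the deadenylation machinery.

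Ccl3 (ENSMUSG00000000982.5; mm10, chromosome 11, 83647844 to 83649355, minus strand) and Ccl4 (ENSMUSG00000018930.3; chromosome 11, 83662584 to 83664683, plus strand) lie head to head with 13228 bases between their 5′ ends. Xcl1 (ENSMUSG00000026573.7; chromosome 1, 164931644 to 164935527, minus strand) stands elsewhere in the genome. Each gene has 3 exons, and the exon lengths sum to 766, 660 and 523 bases. The coding sequences of Ccl3 and Ccl4 were 68.4% identical, and each was less like Xcl1 (49.7% and 48.5%).

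All 3 mRNAs have the heptamer TATTTAT, an AU-rich element core, in the 3′ untranslated region, searched on the mRNA strand only. It stands in capitals below, in bases 222 to 251 of that region in Ccl3, 161 to 190 in Ccl4 and 112 to 141 in Xcl1.
Ccl3: gtatttgtgacTATTTATtctgaaagactt
Ccl4: attatttctatTATTTATgttttagttata
Xcl1: ttataagtaataaaTATTTATtattgatga
The heptamer contains the pentamer ATTTA, which occurred 5 times in Ccl3, 2 times in Ccl4 and 1 time in Xcl1, whose regions are 409, 302 and 141 bases long. Other 3′ untranslated regions at least as long, from 1 transcript a gene, were read only in their last bases, to the same length. The members' own regions were read whole. Among those other regions the heptamer was in 13%, 10.4% and 5.93%, and as many pentamers or more were in 1.12%, 16.4% and 28.7%. These matches describe the letters alone.

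Depth limits what can be said of these genes. Exon counts ran from 551975 to 6479221 (median 2135827) in the other libraries, but resting triptolide 1 h replicate 3 had 6300 and activated untreated 0 h replicate 3 had 141028. The first held 0 Xcl1 counts and the second held 2 Ccl4 and 0 Xcl1 counts. Of the reads, 75.84% to 97.25% lay outside gene counts. In every group Cd3d, Cd3e, Cd3g and Cd4 together stood at 382 to 1400 counts per 1000000 (CPM). Of the 2 CD8 T cell markers, Cd8b1 had a median of 7.56 CPM over activated and 7.38 CPM over resting groups. Cd8a had medians of 0.936 and 0.704 CPM. The 8 NK cell markers, which matter because NK cells also make all 3 chemokines, summed to 7.96 to 22.1 CPM in activated and 6.06 to 44.2 CPM in resting groups. Most of that was Klrd1, Prf1 and Eomes. Of the other 5, Klrb1c (NK1.1) had 85 counts over all activated and 182 over all resting libraries, Gzma 35 and 45, Klre1 24 and 29, Ncr1 4 and 7 and Klra8 2 and 2. Summed over activated and resting groups, the 9 myeloid markers stood at 13.2 to 75 and 20.4 to 59.7 CPM, the 5 dendritic cell markers at 3.83 to 58.2 and 2.58 to 9.1 CPM, the 4 gamma-delta T cell markers at 18 to 50.9 and 21.2 to 36.7 CPM, the 2 CD8 T cell markers at 5.14 to 11.8 and 5.57 to 10.4 CPM and the 4 B cell markers found at 2.31 to 12.4 and 2.72 to 10.1 CPM. In these bulk samples, fewer cells expressing a gene and less RNA per cell cannot be told apart.

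Ccl4 and Xcl1 were the more abundant of the 3 genes in activated cells, and Ccl4 was nearly absent from resting cells. Ccl4 had 1893 exon counts over the 63 activated libraries, with counts in each of them, and 10 counts over the 42 resting libraries, none with more than 1. Xcl1 had 1616 counts in activated cells, in 62 of 63 libraries, and 553 in resting cells, in 41 of 42. Ccl3 had 308 counts in activated cells, in 54 of 63 libraries, and 8 in resting cells. Per kilobase of exon, untreated activated cells at 3 h held 58.1 ± 11.9 CPM of Ccl4, 49.3 ± 11.7 of Xcl1 and 8.02 ± 3.9 of Ccl3 (SD, n = 3). Ccl4 and Xcl1 lay within their spread of each other there, and Ccl3 lay below both. Per kilobase, the Xcl1 mean lay above the Ccl4 mean in 13 of the 21 activated groups, and Ccl3 had the lowest mean in all 21.

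**Figure D1:**
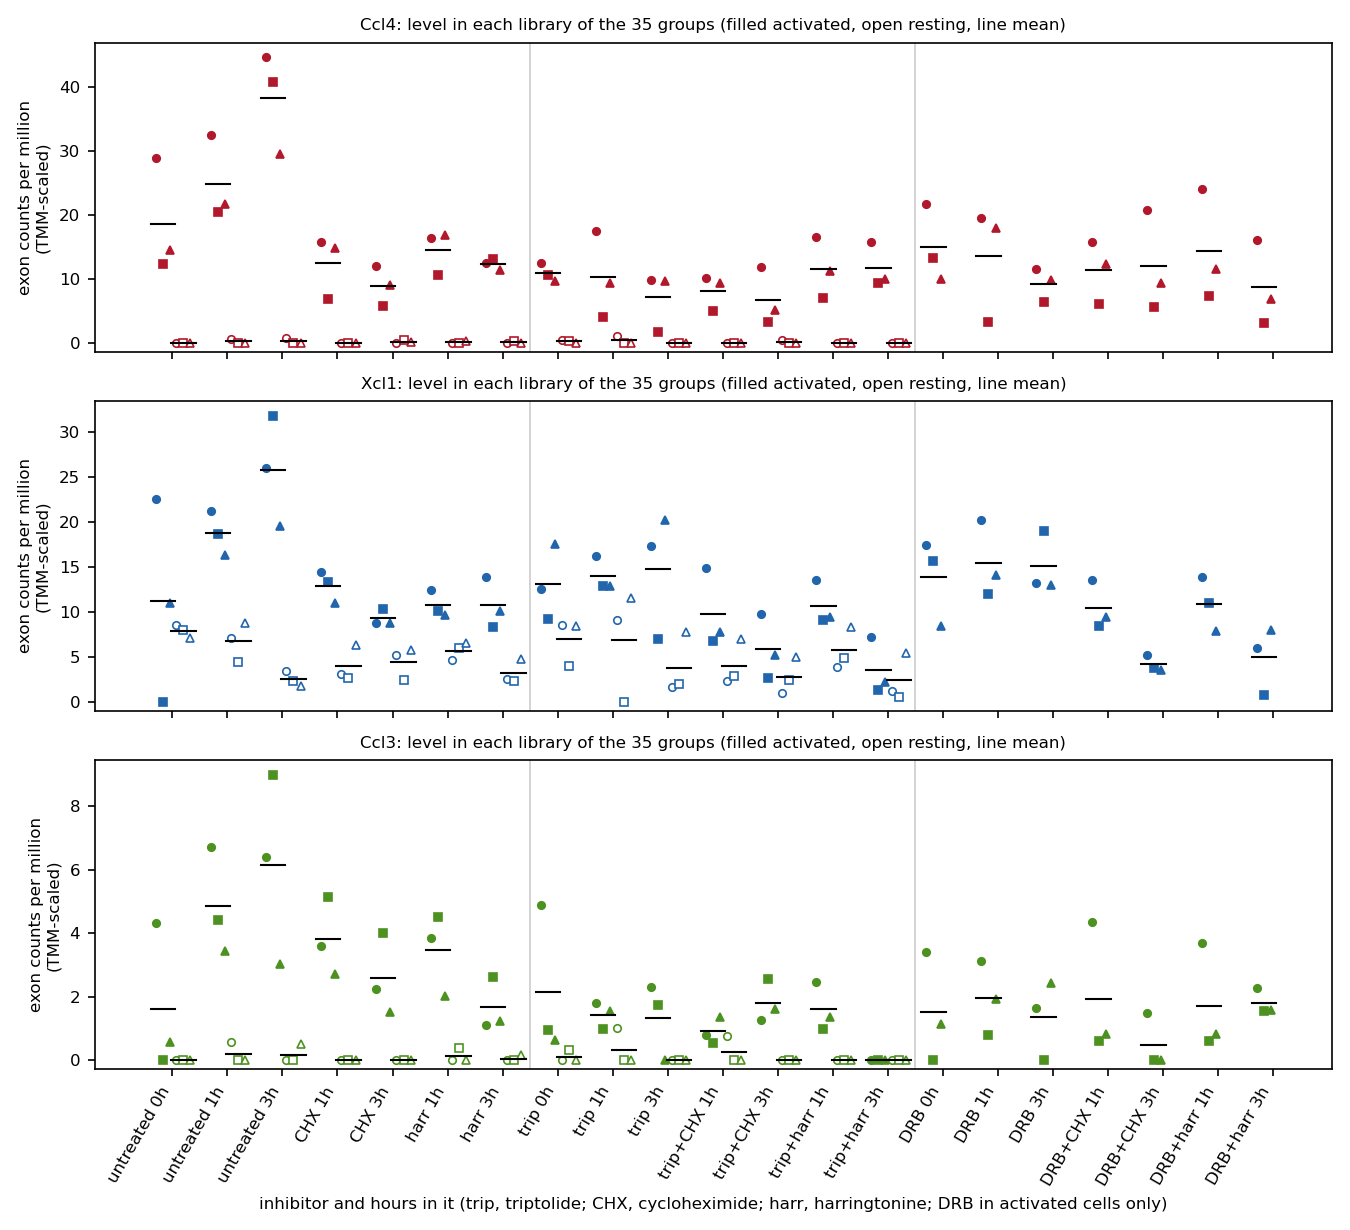
Exon counts per 1000000, scaled by TMM, for Ccl4, Ccl3 and Xcl1 (y axes) in each library of the 35 groups (x axis); circles are replicate 2, squares replicate 3 and triangles replicate 4, filled for activated and open for resting cells, with a line at the group mean. Ccl4 means lie between 6.74 and 38.4 CPM in activated and at or under 0.337 CPM in resting groups, whereas Xcl1 means overlap, 3.56 to 25.8 against 2.36 to 7.87 CPM.

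The group means of Ccl4 ran from 6.74 CPM to 38.4 CPM in activated cells and did not pass 0.337 CPM in resting cells, so the states did not overlap. Untreated activated cells at 3 h stood highest, followed by the same cells at 1 h. Ccl3 had the same highest groups, at 6.15 ± 2.99 and 4.87 ± 1.68 CPM, and was at 0 counts in activated cells given triptolide and harringtonine for 3 h. Xcl1 also had its highest mean, 25.8 ± 6.12 CPM, in untreated activated cells at 3 h, but its lowest activated group, triptolide with harringtonine at 3 h with 3.56 ± 3.19 CPM, stood below several resting groups. With the 35 groups in order of their means, the libraries of 34 of 34 neighbouring pairs overlapped for Ccl3, and of 33 of 34 for Ccl4 and Xcl1. The order of neighbours is therefore not resolved.

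Activated cells were compared with resting cells without inhibitor, to see what stimulation does to each gene. At 3 h the 3 Ccl4 values were 44.8, 40.8 and 29.6 CPM in activated cells (replicates 2, 3 and 4), from 262 counts, against 1 count in the 3 resting libraries. All activated libraries lay above all resting ones. The ratio was 296 with a 95% counting interval of 52.7 to 11700, and edgeR's quasi-likelihood test gave an adjusted p of 4.85e-13. At 1 h it was 192 (33.8 to 7620). At 0 h, with 141 activated counts and 0 resting ones, Ccl4 was at least 55-fold higher, against a floor of 3 counts per group.

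Ccl3 showed the same direction with fewer reads. It had 18, 25 and 40 counts in untreated activated cells at 0, 1 and 3 h and 0, 1 and 2 in resting cells. It was at least 7.02-fold higher at 0 h, and the ratios were 36.8 (6.03 to 1510) at 1 h and 22.6 (5.86 to 193) at 3 h (edgeR adjusted p = 0.00168, 0.000167 and 4.24e-05). At 0 h, 17 of its 18 counts came from replicate 2, and without that replicate number edgeR gave an adjusted p of 0.398.

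Xcl1 differed less, because resting cells held it too. At 3 h its values were 25.9, 31.8 and 19.6 CPM in activated cells and 3.37, 2.25 and 1.77 CPM in resting cells, with no overlap. The log2 difference was 3.46 ± 0.48 (SE; edgeR adjusted p = 2.31e-09) at 3 h and 1.45 ± 0.42 (adjusted p = 0.00392) at 1 h. At 0 h it was 1.03 ± 0.43 (edgeR adjusted p = 0.0649), and 1.15 (adjusted p = 0.0385) without the 2 shallowest libraries. Thus 2, 3 and 3 of the 3 genes were higher in activated cells at 0, 1 and 3 h, where 26.8%, 37.9% and 53.8% of the 10741 genes tested were called in either direction.

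Without inhibitor, edgeR's main fit, which takes no account of the replicate numbers, called none of the 3 genes over time in activated cells. A fit with the numbers as a block over all libraries called Ccl4 from 0 to 3 h, as given in the last section. Ccl4 averaged 18.5 ± 9.06, 24.9 ± 6.69 and 38.4 ± 7.88 CPM at 0, 1 and 3 h. The 3 h libraries all lay above the 0 h libraries, whose values were 28.9, 12.3 and 14.45 CPM. The log2 change from 0 to 3 h was 0.84 ± 0.44 for Ccl4, 0.68 ± 0.39 for Xcl1 and 1.13 ± 0.67 for Ccl3 (edgeR adjusted p = 0.21, 0.278 and 0.286). None was called by that main fit, where 13.6% of genes were, and none had an unadjusted p under 0.05 in it. DESeq2 called neither of the 2 it gave an adjusted p for. From 0 to 1 h edgeR also called none (0.242% of genes called), and none had an unadjusted p under 0.05. DESeq2 gave no adjusted p for any of the 3 there.

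Xcl1 in untreated resting cells went the other way. Its values were 8.57, 7.92 and 7.12 CPM at 0 h, 7.10, 4.39 and 8.78 CPM at 1 h and 3.37, 2.25 and 1.77 CPM at 3 h. All 3 h libraries lay below all 0 h libraries. It fell by 1.76 ± 0.53 on the log2 scale from 0 to 3 h (edgeR adjusted p = 0.0272), where 6.39% of genes were called. The summed NK cell markers moved in the opposite direction, from 19.7 ± 4.28 CPM at 0 h to 44.2 ± 4.98 CPM at 3 h. Klrd1 made up most of the 3 h sum. It reached 30.7 CPM in its highest resting group, and the next marker, Prf1, 10.7 CPM. Klrb1c and Ncr1 did not pass 2.78 and 0.272 CPM in any resting group. The 3 h libraries rest on 17 Xcl1 counts in all, against 53 at 0 h, and without any of the replicate numbers the adjusted p ran from 0.0717 to 0.23.

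Decay was read from cells given triptolide or DRB, which block the making of new mRNA. The scaling matters here: TMM assumes that the typical gene is stable, whereas scaling on the ERCC counts reads each gene against added RNA. On the ERCC scale the median of all genes moved by -1.68 (log2) from 0 to 3 h of triptolide in activated cells, by -1.54 in DRB and by -1.77 in resting cells with triptolide. In the other comparisons named here that median lay between -0.79 and 1.02.

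Against added RNA, Ccl4 and Xcl1 fell in activated cells over 3 h of either inhibitor, with 21% to 22.8% of Ccl4 and 36.2% to 37.0% of Xcl1 left. These shares are relative to the libraries labelled 0 h of the same inhibitor. Per ERCC count, those stood at 61.1% (triptolide) and 70.7% (DRB) of untreated 0 h for Ccl4. For Xcl1 they stood at 143% and 133%, and none of the 4 was shown to differ (exact permutation p = 0.2, 0.3, 0.8 and 0.8). Untreated 0 h replicate 3 held 0 Xcl1 counts and only 7278 ERCC counts, so its value is the pseudocount of 0.5 alone. With a pseudocount of 1 the Xcl1 shares were 115% and 106%, so they depend on that shallow library and their direction is not settled. Per 100000 ERCC counts, Ccl4 stood at 36.9, 23.4 and 19.4 at 0 h of triptolide and at 6.59, 2.19 and 5.34 at 3 h. No 3 h library reached the lowest 0 h library. It fell by 2.25 ± 0.62 on the log2 scale with ERCC scaling, to 21% (edgeR adjusted p = 0.000858), and in DRB by 2.13 ± 0.56, to 22.8% (adjusted p = 0.000607). Xcl1 stood at 36.9, 20.2 and 34.9 at 0 h of triptolide and at 11.6, 8.76 and 11.1 at 3 h, again without overlap. It fell by 1.47 ± 0.48, to 36.2% (edgeR adjusted p = 0.00477), and in DRB by 1.43 ± 0.46, to 37.0% (adjusted p = 0.00425). Ccl3 fell by 2.39 ± 0.96 in triptolide (edgeR adjusted p = 0.0201), and its change in DRB was -1.64 ± 0.89 (adjusted p = 0.0851), from at most 14 counts a group. So 3 and 2 of the 3 genes were called, in comparisons where 79.6% of all genes were called each time. The exact permutation test on the 3 against 3 libraries gave p = 0.1 for Ccl4 and Xcl1 in both inhibitors, the smallest it can give (0.3167 after Benjamini-Hochberg adjustment over the 95 comparisons per ERCC count).

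**Figure D2:**
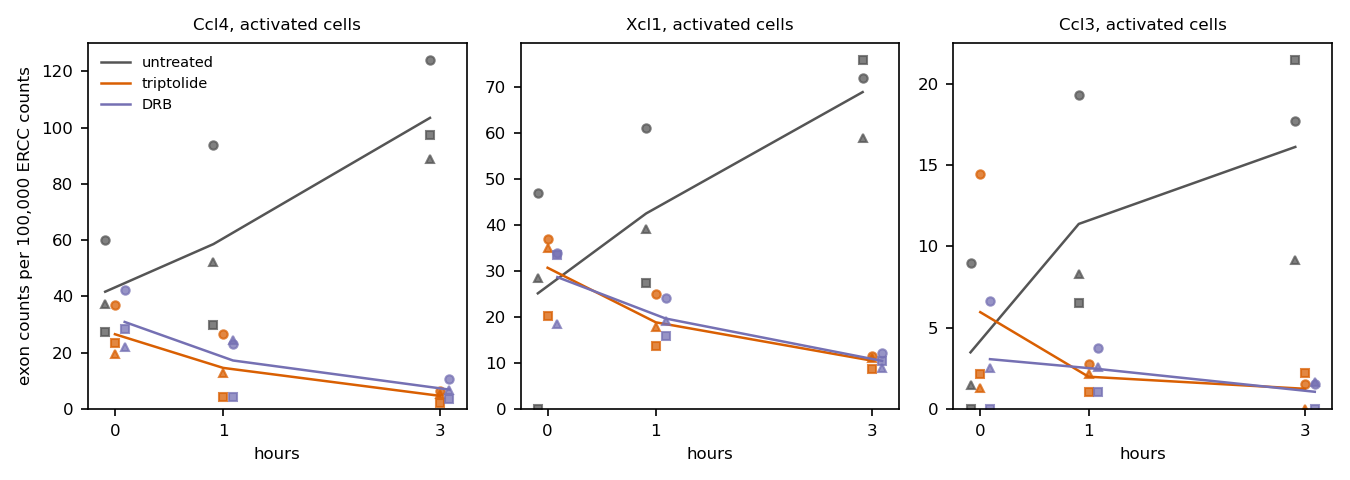
Exon counts per 100000 ERCC counts (y axes) of the 3 genes in activated cells against hours (x axis) in untreated, triptolide and DRB libraries; points are libraries and lines join group means. Ccl4 and Xcl1 lie higher at 3 h than at 0 h without inhibitor and lower at 3 h than at 0 h in both inhibitors, with DRB at 10.6, 3.45 and 6.71 for Ccl4 and 12.1, 10.3 and 8.95 for Xcl1.

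Relative to the typical gene, none of the 3 passed the test over 3 h of either inhibitor. With TMM the log2 change in triptolide was -0.44 ± 0.54 for Ccl4, 0.31 ± 0.43 for Xcl1 and -0.64 ± 0.94 for Ccl3. In DRB it was -0.66 ± 0.5 for Ccl4 and 0.1 ± 0.42 for Xcl1. None was called in either by edgeR or DESeq2 or had an unadjusted p under 0.05, where 47.6% (triptolide) and 39.8% (DRB) of genes were called by edgeR. After 1 h none was called on either scale, where 24.2% and 15.9% of genes were called with TMM and 45.5% and 37.3% with ERCC scaling (triptolide, then DRB). The changes in triptolide and DRB were not shown to differ for any of the 3 genes (edgeR adjusted p = 1.0 each, log2 differences -0.39 to 0.22, with 1.38% of genes called). The Xcl1 to Ccl4 ratio within a library, which needs no scaling, had a log2 mean of 0.21 ± 0.547 at 0 h of triptolide and 1.14 ± 0.403 at 3 h, and -0.11 ± 0.295 and 0.695 ± 0.701 in DRB (exact permutation test, two-sided, p = 0.2 each), so the shares left were not shown to differ between the genes.

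In resting cells Xcl1 could be followed through the triptolide block as well. It stood at 18.7, 6.75 and 15.3 per 100000 ERCC counts at 0 h and at 1.24, 1.03 and 3.89 at 3 h. The groups did not overlap, although the 3 h libraries held only 13 counts in all. It fell by 2.45 ± 0.58 with ERCC scaling, to 18.2% (edgeR adjusted p = 0.000116; 77.4% of genes called), and its change with TMM was -0.66 ± 0.57 (adjusted p = 0.327; 56.8% of genes called). The difference between the activated and the resting change was 0.97 ± 0.71 with TMM (edgeR adjusted p = 0.484; 6.47% of genes called), so it was not shown to differ between the states.

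Adding a translation inhibitor to the transcription block lowered Xcl1 in each of 4 combinations at 3 h relative to the typical gene, while Ccl4 was not called in any. Xcl1 stood at 17.3, 6.96 and 20.2 CPM in triptolide alone, at 9.75, 2.57 and 5.15 CPM with cycloheximide and at 7.21, 1.32 and 2.13 CPM with harringtonine. The highest library of each combination lay above the lowest of triptolide alone, so both overlapped it. Xcl1 fell by 1.4 ± 0.45 on the log2 scale with cycloheximide (edgeR adjusted p = 0.0144; 27.3% of genes called) and by 2.13 ± 0.53 with harringtonine (adjusted p = 0.00119; 24.7% called). Without replicate number 4 in any group these changes were -1.01 and -1.64 (edgeR adjusted p = 0.228 and 0.0673).

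Under DRB the Xcl1 values were 13.2, 19 and 13 CPM alone, 5.19, 3.76 and 3.52 CPM with cycloheximide and 5.97, 0.776 and 7.96 CPM with harringtonine. Both combinations lay wholly below DRB alone. Xcl1 fell by 1.79 ± 0.55 with cycloheximide (edgeR adjusted p = 0.0141; 17.6% of genes called) and by 1.47 ± 0.48 with harringtonine (adjusted p = 0.0215; 18.7% called). With any replicate number left out the cycloheximide change lay between -2.07 and -1.54 and was not called (edgeR adjusted p = 0.0609 to 0.13), and without number 2 or 3 the harringtonine change was -1.66 or -0.87 (adjusted p = 0.0729 and 0.296). Each pair of combinations shares its transcription inhibitor libraries, so the cycloheximide and harringtonine results are not independent. Cycloheximide and harringtonine were not shown to differ for Xcl1 under triptolide (log2 difference 0.73 ± 0.55) or under DRB (-0.33 ± 0.6; edgeR adjusted p = 0.62 and 0.865), where 4.88% and 3.63% of genes were called.

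On the ERCC scale the Xcl1 differences were smaller and only 1 of 4 was called. The median of all genes rose in each combination on that scale, by 0.62 and 0.38 (cycloheximide and harringtonine on triptolide) and by 0.59 and 0.52 (on DRB). The Xcl1 changes were -0.56, -1.53, -1.09 and -0.89 in the same order (edgeR adjusted p = 0.428, 0.0392, 0.155 and 0.21, with 34.9%, 22.7%, 29.7% and 25.8% of genes called). Per 100000 ERCC counts Xcl1 stood at 12.1, 10.3 and 8.95 in DRB alone, at 5.69, 4.82 and 4.15 with cycloheximide (51.4% of DRB alone) and at 7.04, 0.967 and 7.42 with harringtonine (40.5%). Neither combination overlapped DRB alone, and the exact permutation test gave p = 0.1 for both, the smallest it can give (0.3167 after adjustment over the 95 comparisons). On triptolide it stood at 59.8% with cycloheximide, with overlap, and at 29.6% with harringtonine, without overlap (exact permutation p = 0.4 and 0.1). In the 3 combinations not called on the ERCC scale, the test across all genes showed a fall relative to the typical gene and not one against added RNA.

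Ccl4 in the same libraries stood at 9.78, 1.74 and 9.68 CPM in triptolide, 11.9, 3.21 and 5.15 CPM with cycloheximide and 15.7, 9.27 and 9.95 CPM with harringtonine. It stood at 11.6, 6.33 and 9.77 CPM in DRB, 20.8, 5.64 and 9.38 CPM with cycloheximide and 16.1, 3.11 and 6.9 CPM with harringtonine. Each combination overlapped the transcription inhibitor alone. The log2 changes were -0.23 ± 0.56, 0.53 ± 0.55, 0.41 ± 0.54 and -0.06 ± 0.53 (edgeR adjusted p = 0.787, 0.519, 0.64 and 0.963). Ccl3 had 5 counts in triptolide at 3 h, 4 of them in replicate 2, and 0 with harringtonine added. The fold was 2.09 against a floor of 3 counts, with the 5 counts taken as exact, and so few counts do not show a fall. Ccl3 was not called in any combination.

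The ratio of Xcl1 to Ccl4 within a library moved the same way in all 4 combinations. Its log2 mean was 1.14 ± 0.403 in triptolide, -0.19 ± 0.164 with cycloheximide and -1.89 ± 0.735 with harringtonine. In DRB it was 0.695 ± 0.701, with cycloheximide -1.25 ± 0.725 and with harringtonine -0.93 ± 0.98. The libraries did not overlap in 3 of the 4 comparisons. The exact two-sided permutation test gave p = 0.1, the smallest that 3 against 3 libraries allow, in those 3 and p = 0.2 for harringtonine on DRB, and Benjamini-Hochberg adjustment over the 51 ratios compared gave 0.7286 for each. Summed over libraries, Xcl1 made up 66.3% of the Xcl1 and Ccl4 counts in triptolide at 3 h (exact binomial 95% interval 55.5 to 76.0, counting error only), 46.9% (36.8 to 57.3) with cycloheximide and 23.5% (14.1 to 35.4) with harringtonine. The summed NK cell markers stood at 11.6, 16.1 and 10.6 CPM in those 3 groups, and at 8.28, 22.1 and 11.7 CPM in DRB, DRB with cycloheximide and DRB with harringtonine, and their part in the result was not tested.

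**Figure D3:**
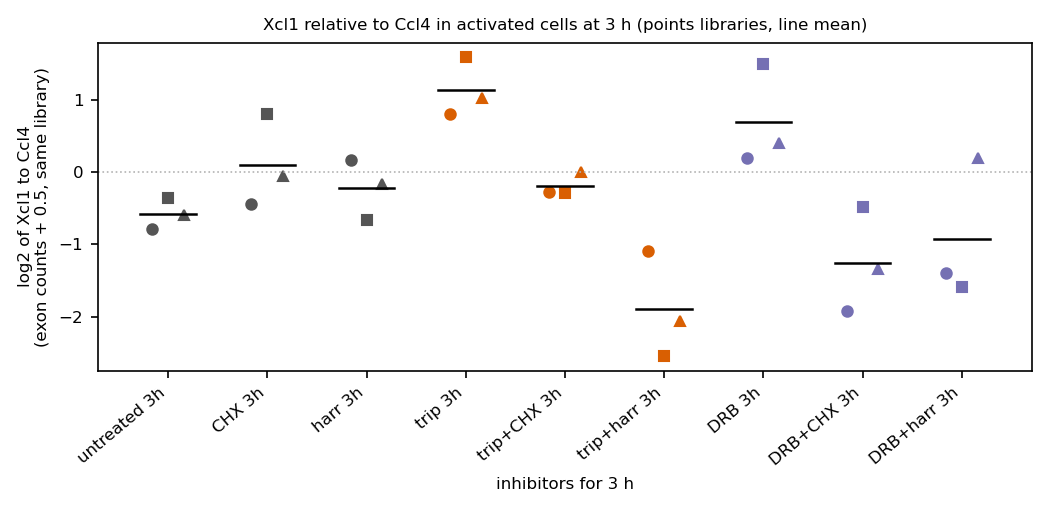
Log2 of the Xcl1 to Ccl4 count ratio (y axis, 0.5 added to each count) in activated libraries at 3 h by inhibitor (x axis); points are libraries and lines group means. The means are 1.14 in triptolide and 0.695 in DRB, and -0.19, -1.89, -1.25 and -0.93 once cycloheximide or harringtonine is added.

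At 1 h none of the 4 combinations was called against the transcription inhibitor alone for any of the 3 genes. The Xcl1 log2 changes were -0.52, -0.39, -0.59 and -0.55 (cycloheximide and harringtonine on triptolide, then on DRB), with edgeR adjusted p between 0.44 and 0.623. None of the 3 genes was called by edgeR or had an unadjusted p under 0.05, where 11.7%, 11.4%, 6.48% and 6.88% of genes were called. DESeq2 gave an adjusted p for 2 of the 3 in each of these combinations and called neither. In resting cells the Xcl1 changes after 3 h on triptolide were -0.73 ± 0.68 with cycloheximide and -0.92 ± 0.71 with harringtonine, from 12 to 16 counts a group, and neither was called by edgeR or DESeq2 or had an unadjusted p under 0.05 (35.2% and 24.0% of genes called).

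With transcription running, both translation inhibitors lowered Ccl4 and Xcl1 in activated cells at 3 h. Ccl4, at 44.8, 40.8 and 29.6 CPM untreated, stood at 11.9, 5.80 and 9.08 CPM in cycloheximide and 12.4, 13.2 and 11.3 CPM in harringtonine. Every inhibited library lay below every untreated one. It fell by 2.07 ± 0.43 and 1.64 ± 0.42 on the log2 scale (edgeR adjusted p = 0.000107 and 0.00144). Xcl1, at 25.9, 31.8 and 19.6 CPM untreated, stood at 8.71, 10.3 and 8.78 CPM in cycloheximide and 13.9, 8.27 and 10.0 CPM in harringtonine, again without overlap. It fell by 1.47 ± 0.38 and 1.25 ± 0.38 (edgeR adjusted p = 0.00177 and 0.00679).

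Ccl3 fell by 1.85 ± 0.64 in harringtonine (edgeR adjusted p = 0.0219), and its change in cycloheximide was -1.25 ± 0.62 (adjusted p = 0.122). Of the harringtonine changes, Ccl3 was not called without any of the replicate numbers (edgeR adjusted p = 0.0876 to 0.119), Ccl4 not without number 4 (-1.68; adjusted p = 0.0638) and Xcl1 not without number 3 (-0.86; adjusted p = 0.138). So 2 of 3 genes were called in cycloheximide and 3 of 3 in harringtonine, where 30.0% and 31.0% of all genes were called. Both comparisons use the same untreated libraries. In these libraries the summed dendritic cell markers also moved, from 5.67 ± 0.633 CPM untreated to 45.7 ± 18.1 CPM in cycloheximide and 58.2 ± 11.7 CPM in harringtonine. Zbtb46 made up nearly all of that, and Clec9a and Siglech had 5 and 6 counts over all activated libraries. The summed NK cell markers stood at 7.96, 12.6 and 9.49 CPM and the myeloid markers at 22.6, 15.9 and 13.2 CPM in the same order, and the part of these markers in the result was not tested. On the ERCC scale Ccl4 in cycloheximide remained called, with a change of -1.56 (edgeR adjusted p = 0.0157), and Ccl4 in harringtonine (-1.25), Xcl1 (-0.98 and -0.84) and Ccl3 in harringtonine (-1.47) were not, where 28% and 24.1% of genes were called in cycloheximide and harringtonine. The 1 h changes of the 3 genes lay between -0.98 and -0.38, and edgeR called none (2.63% and 2.09% of genes called), with 1 unadjusted p under 0.05, for Ccl4 in cycloheximide. DESeq2 gave an adjusted p for 1 of the 3 in cycloheximide, which it did not call, and for none in harringtonine.

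Xcl1 responded to cycloheximide differently in resting cells. At 3 h it stood at 3.37, 2.25 and 1.77 CPM untreated, 5.16, 2.42 and 5.70 CPM in cycloheximide and 2.55, 2.29 and 4.79 CPM in harringtonine, and the ranges overlapped. The log2 change was 1.01 ± 0.53 in cycloheximide (edgeR adjusted p = 0.151; 26.3% of genes called) and 0.56 ± 0.55 in harringtonine (adjusted p = 0.52; 20.5% called). On the ERCC scale, where the median of all genes rose by 1.02 and 1.0, Xcl1 rose by 2.07 ± 0.56 and 1.57 (edgeR adjusted p = 0.00125 and 0.0171; 61.4% and 60.3% of genes called). The cycloheximide change in activated cells minus that in resting cells was -2.48 ± 0.65 (edgeR adjusted p = 0.00404; 16.6% of genes called). On the ERCC scale the difference was -3.05 (edgeR adjusted p = 0.002; 15.1% of genes called), so the states differed on both scales. The resting untreated libraries at 3 h that this rests on are those in which Xcl1 had fallen, with 17 counts, and in which the NK cell markers were highest, at 44.2 CPM against 23.9 CPM in cycloheximide. Klrd1 made up most of the 44.2 CPM. Without replicate number 4 the difference was -2.05 (edgeR adjusted p = 0.159).

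Intron reads, which come from RNA not yet spliced, were numerous enough to test for Xcl1 only. It had 140 intron counts over activated and 139 over resting libraries, whereas Ccl3 and Ccl4, with introns of 746 and 1440 bases against 3361 in Xcl1, had 7 and 17 in activated cells. Untreated cells held 30, 13 and 28 Xcl1 intron counts at 0, 1 and 3 h in the activated state and 21, 19 and 17 in the resting state. The states were not shown to differ in these counts at any time (edgeR adjusted p = 0.768, 0.999 and 0.483, with 9.69%, 17.7% and 22.8% of genes called on introns), at log2 differences of 0.7 ± 1.11, -0.03 ± 1.1 and 1.15 ± 1.07. A 100-base stretch of Xcl1 exon is shared with the gene Gm20743 on the opposite strand, and the strand setting of the counting is not given in the sources used here, so reads of that stretch cannot be assigned with certainty.

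After 1 or 3 h of triptolide the Xcl1 introns held 0 to 2 counts a group, with exon counts still present. Activated cells labelled 0 h of triptolide held 1 intron count beside 69 exon counts. The intron count was 0.0357 times that of untreated cells at 0 h relative to depth (95% counting interval 0.000874 to 0.214; edgeR adjusted p = 0.0122; 36.0% of genes called on introns). The exon change in the same comparison was -0.31 ± 0.42 (edgeR adjusted p = 1.0; 0.438% of genes called on exons). Activated cells in DRB held 8, 4 and 3 intron counts at 0, 1 and 3 h. Relative to depth these were 0.877 ± 0.939, 0.916 ± 1.3 and 1.12 ± 1.29 intron CPM, without a fall. Resting cells held 14 at 0 h of triptolide and 0 at both 1 and 3 h, at least 2.78-fold and 1.6-fold lower against a floor of 3 counts per group (edgeR adjusted p = 0.0292 and 0.0366; 48.1% and 59.0% of genes called on introns). In libraries labelled 0 h of triptolide the introns were thus nearly empty in activated and not in resting cells, a difference that was not itself tested. Cells in cycloheximide or harringtonine alone held 9 to 15 Xcl1 intron counts a group in the activated and 14 to 19 in the resting state. Relative to depth, activated cells at 3 h held 3.66 ± 2.78 intron CPM untreated, 1.02 ± 0.447 in cycloheximide and 1.21 ± 0.853 in harringtonine, log2 differences of -1.81 ± 1.11 and -1.62 ± 1.1 that were not called (edgeR adjusted p = 0.26 and 0.342; 20% and 17.3% of genes called on introns).

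**Figure D4:**
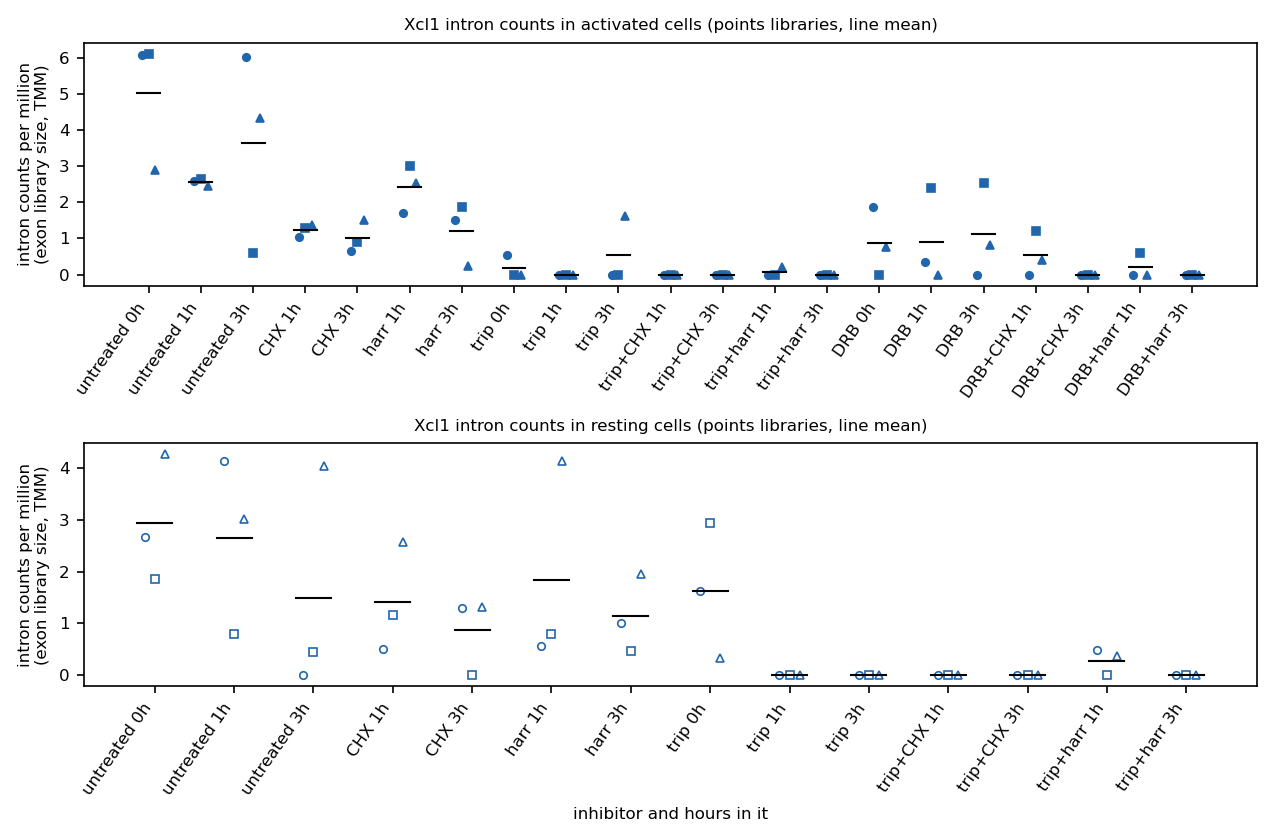
Xcl1 intron counts per 1000000 of the exon library size (y axes) in activated and resting libraries by inhibitor and hours (x axis); points are libraries and lines group means. Untreated groups average 2.57 to 5.04 in activated and 1.5 to 2.94 in resting cells, and triptolide groups at 1 h are at 0 in both states.

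The reads fell on different parts of the 3 mRNAs. Of the Xcl1 exon counts in activated cells, 1042 lay in the coding sequence, 87 in the 3′ and 4 in the 5′ untranslated region. Ccl4 had 759 in the coding sequence, 370 in the 3′ and 333 in the 5′ untranslated region, and Ccl3 had 116, 109 and 24. The parts do not hold all exon counts, which were 1616, 1893 and 308 in Xcl1, Ccl4 and Ccl3. They also differ in length. In the same order, coding sequences have 342, 276 and 276 bases, 3′ regions 141, 302 and 409, and 5′ regions 37, 79 and 78. Restricted to the coding sequence, the fall of Xcl1 in untreated resting cells was -1.03 and was not called (edgeR adjusted p = 0.397).

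The other genes of the chemokine system were counted from lists of 33 further ligands, 23 receptors and 12 effector cytokines. Of these, 2, 14 and 9 passed the filter on low counts, a filter that keeps genes high in any group, so the counts below describe those alone. Activated cells at 3 h had 8 of 9 cytokines higher and 0 lower (median log2 difference 3.36, against -0.04 over all genes, of which 53.8% were called), with Il2, the T cell growth factor, at 143 ± 21.3 against 0.3 ± 0.52 CPM and Tnf, the inflammatory cytokine, at 245 ± 47.5 against 14 ± 0.594 CPM. Among receptors 4 of 14 were higher and 4 lower, a share called near that of all genes. Ccr8, a receptor of Th2 and regulatory T cells, was 5.48 ± 0.38 higher and Ccr4 3.13 ± 0.37 higher on the log2 scale (edgeR adjusted p = 1.36e-21 and 1.1e-11). Cxcl10, an interferon-induced ligand of Cxcr3, was higher by 3.17 ± 0.5 (adjusted p = 8.86e-08), and Ccl5 was not called (-0.44 ± 0.86; adjusted p = 0.697).

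During 3 h of triptolide in activated cells, with TMM, 6 of 14 receptors and 3 of 9 cytokines fell and 1 receptor rose, where 47.6% of all genes were called, beside none of Ccl3, Ccl4 and Xcl1. With ERCC scaling 11 of 14 receptors and 8 of 9 cytokines fell and none rose, where 79.6% of all genes were called. With TMM, Ccr7, the lymph node homing receptor, fell by 2.74 ± 0.3 and Ccr8 by 2.61 ± 0.36 (edgeR adjusted p = 7.75e-12 and 6.03e-09). Il2 fell by 1.58 ± 0.4, Tnf by 1.13 ± 0.33 and Cxcl10 by 1.91 ± 0.58, also with TMM (edgeR adjusted p = 0.000719, 0.00302 and 0.00464). Each of these lost more than the typical gene did, and whether they differed from the 3 chemokines was not tested.

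When a translation inhibitor was added to the transcription block for 3 h, the change called for Xcl1 was also called for Tnf in 3 of 4 combinations. Tnf fell from 25.0 ± 12.1 to 5.21 ± 1.27 CPM with cycloheximide on triptolide, by 2.22 ± 0.4 on the log2 scale (edgeR adjusted p = 9.14e-06), and by 1.16 ± 0.35 and 1.09 ± 0.33 with cycloheximide and harringtonine on DRB (adjusted p = 0.0143 and 0.0115). Il17a, the Th17 cytokine, fell by 2.18 ± 0.73 with harringtonine on DRB (adjusted p = 0.0241), and no other of the 9 cytokines was called in any combination. Tnf remained called on the ERCC scale with cycloheximide on triptolide (-1.45; edgeR adjusted p = 0.00422), and its changes on DRB (-0.35 and -0.39) and that of Il17a (-1.57) were not called. Of the 14 receptors, 3 were higher and 1 lower in both triptolide combinations, 2 were higher and 0 lower with cycloheximide on DRB and 1 was higher and 0 lower with harringtonine on DRB, shares near or below the 27.3%, 24.7%, 17.6% and 18.7% called over all genes. Cxcr3 rose by 2.16 ± 0.62 with cycloheximide on triptolide, and Cxcr6, the receptor of Cxcl16, rose by 1.53 ± 0.35 and 1.59 ± 0.33 on DRB (edgeR adjusted p = 0.00563, 0.000755 and 0.00015).

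Translation inhibitors alone did not lower every cytokine and chemokine of activated cells at 3 h. Cxcl10 rose from 24.7 ± 3.95 to 100 ± 11.6 CPM in cycloheximide and 108 ± 17.1 CPM in harringtonine, by 2.02 ± 0.36 and 2.13 ± 0.36 on the log2 scale (edgeR adjusted p = 5.09e-06 and 1.69e-06), in the libraries where Ccl4 and Xcl1 fell. Of the 9 cytokines, 3 were higher and 3 lower in cycloheximide and 2 higher and 3 lower in harringtonine, where 30.0% and 31.0% of all genes were called. With ERCC scaling 3 were higher and 1 lower in cycloheximide and 3 higher and 3 lower in harringtonine. Il2 fell by 1.33 ± 0.34 and 1.42 ± 0.34, Il13 by 3.26 ± 0.73 in cycloheximide, and Csf2 fell by 3.09 ± 0.69 in harringtonine (edgeR adjusted p = 0.00125, 0.000532, 0.000298 and 0.00026), and on the ERCC scale Il2 in cycloheximide was not called (-0.83; adjusted p = 0.109). Cxcr4, the receptor of Cxcl12, rose by 1.47 ± 0.32 and 1.27 ± 0.32 (edgeR adjusted p = 0.000193 and 0.00129).

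Genes of like pattern were ranked by Pearson correlation of mean log2 CPM over the 35 groups among 9187 named genes whose mean reached 10 CPM in a group. The groups share libraries' depth and the split between the states, so the values describe likeness only. Closest to Ccl4 were Lad1, Slc19a1, Il2, Hivep3 and Shmt1 (0.979 to 0.967). Closest to Ccl3 were Spin4, Il2, Vegfa, Mfsd2a and Dctd (0.898 to 0.879), and closest to Xcl1 were Lgals3bp, Gcsh, Ubtd2, Gps1 and Nacc1 (0.891 to 0.835). Il2 was on the lists of Ccl3 and Ccl4. Among themselves, Ccl3 and Ccl4 correlated at 0.85, Ccl3 and Xcl1 at 0.787 and Ccl4 and Xcl1 at 0.716.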

How the data were processed

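The deposited table holds raw counts per gene and library, made by the authors. The submitters' processing notes name TopHat2 (2.0.13), Bowtie (1.1.1.0), HTSeq and the mm10 build. Separate count columns cover exons, coding sequence, untranslated regions and introns alone. Of 22322 mouse genes, 22124 matched a symbol. Exon counts of all 105 libraries were fitted as 35 group means with edgeR 4.0.16 (R 4.3.3): TMM factors, filterByExpr (10741 genes kept, all 3 members among them) and the robust quasi-likelihood F test for 44 comparisons, with Benjamini-Hochberg adjustment over all genes tested and calls at an adjusted p under 0.05. Introns were fitted with the exon scaling. CPM are counts per 1000000 of the TMM-scaled library. Levels per ERCC count and ratios used 0.5 as pseudocount and exact permutation tests, whose smallest p for 3 against 3 libraries is 0.1. The script was tested on simulated data.

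Members and gene lists were chosen with earlier results of these data known. Named were the 3 members in every group, from each list the 2 genes with the smallest p in a comparison, and the 5 genes of most like pattern. A list gene that these left out is counted only. Alternatives were scaling on ERCC counts, RLE factors or library size, DESeq2 1.42.0, no filter, fewer libraries, replicate blocks and coding-sequence counts. No 2 libraries of a group agreed within sampling noise. Sequences are from GENCODE M21 transcripts on mm10. Counting intervals and floors cover counting error only, since PCR copies are not told apart. A fold against a floor takes the counts of the other group as exact.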

Additional observations from a re-analysis of the deposited data

Results flagged for a closer look

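The response of Xcl1 to 3 h of cycloheximide differed between the states by the test of that difference. It fell by 1.47 ± 0.38 on the log2 scale in activated cells, and its change was 1.01 ± 0.53 in resting cells (edgeR adjusted p = 0.151), a difference of -2.48 ± 0.65 (edgeR adjusted p = 0.00404). All 3 activated libraries in cycloheximide (8.71, 10.3 and 8.78 CPM) lay below all 3 untreated ones (25.9, 31.8 and 19.6 CPM), whereas the resting libraries overlapped (5.16, 2.42 and 5.70 against 3.37, 2.25 and 1.77 CPM). Without replicate number 4 the difference was -2.05 (adjusted p = 0.159). The resting untreated libraries at 3 h held only 17 Xcl1 counts. They averaged 2.46 ± 0.819 CPM, against 7.87 ± 0.726 CPM untreated at 0 h and 4.43 ± 1.75 CPM in cycloheximide at 3 h.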

How the results depend on the processing

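Of 512 values recomputed under other settings, 446 kept their direction and their side of the threshold. That number includes values per ERCC count, whose exact p cannot fall under 0.1, so their side was fixed in advance. It also includes changes that were not called under any setting. For the called changes set apart as headline results, 153 values stayed the same and 26 kept their direction but lost the call. Scaling on ERCC counts ended the calls of Xcl1 for cycloheximide on triptolide (-0.56) and on DRB (-1.09), harringtonine on DRB (-0.89), cycloheximide alone (-0.98) and harringtonine alone (-0.84), and of Ccl4 (-1.25) and Ccl3 (-1.47) in harringtonine alone. It turned the uncalled Xcl1 changes over 3 h of triptolide (-1.47) and DRB (-1.43), and those of Ccl4 for cycloheximide on triptolide (0.64) and harringtonine on DRB (0.52). Library size alone turned Xcl1 in triptolide (-0.08) and DRB (-0.32) and Ccl4 for harringtonine on DRB (0.12). RLE factors (-0.09) and DESeq2 (-0.08) turned Xcl1 in DRB. Coding-sequence counts turned Ccl4 in triptolide (0.03), harringtonine on triptolide (-0.09) and harringtonine on DRB (0.03), and ended the call of Xcl1 in untreated resting cells (-1.03). With only the libraries compared, Xcl1 was not called for cycloheximide (-1.74) or harringtonine (-1.42) on DRB. The causes were not tested.

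Leaving out a replicate number gave Xcl1 changes of -1.83 to -1.01 (cycloheximide on triptolide), -3.11 to -1.64 (harringtonine on triptolide), -2.07 to -1.54 (cycloheximide on DRB), -2.0 to -0.87 (harringtonine on DRB), -1.4 to -0.86 (harringtonine alone), -1.9 to -1.61 (untreated resting), -2.59 to -2.05 (activated minus resting in cycloheximide), -0.11 to 0.43 (DRB) and -0.12 to 0.9 (resting harringtonine). Ccl4 ran from -1.68 to -1.47 in harringtonine alone, from -0.62 to 0.18 for cycloheximide on triptolide and from -0.64 to 0.16 for harringtonine on DRB. Ccl3 ran from -1.91 to -1.56 in harringtonine alone and from -0.98 to 0.9 in DRB.

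Same-numbered libraries deviated together on average (mean correlation 0.566 in activated and 0.341 in resting cells, against -0.276 and -0.166 between numbers), and 63 of 63 activated and 41 of 41 resting libraries were closest to their own number, a hint from the data and not from the design. The lowest same-number correlations were -0.0535 and -0.444. The labels do not say what libraries of a number share, so the numbers were not taken to pair samples. The main fit therefore leaves this shared deviation in its spread, and a gene that it did not call may be called with a block. With the replicate block over all libraries, the Ccl4 rise from 0 to 3 h in untreated activated cells was 1.09 (edgeR adjusted p = 0.00887), and calls over all genes in that comparison went from 1462 to 1884. With the replicate block within each state, Xcl1 was called at 0 h between states (1.4) and Ccl3 in cycloheximide alone (-1.22), and calls in the cycloheximide on triptolide comparison went from 2936 to 4518.

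With a median of 3 Ccl3 and 25 Ccl4 counts per activated library, and 9.5 Xcl1 counts per resting library, changes of Ccl3 and of resting Xcl1 are measured least well.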
